A study of Mus musculus with 14 samples.

Results

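The genes described here are those that give B lymphocytes their identity and carry the signal of their antigen receptor. They were taken as a list of 33 gene symbols, and a gene counted as measured where at least 1 probe set of the array was annotated with that symbol alone. This held for 31 of the 33 genes, out of 22180 genes measured in the same way. The probe set of Cd72 also lists Tesk1, and Lyn had no probe set of a single symbol, so both were left out. Bcl11a and Cd24a were each the mean of 2 probe sets, and every other gene had 1.

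RNA was hybridised to arrays after biotin labelling and came from male mice of 12 weeks, which had eaten a Western type diet rich in fat and cholesterol for 4 weeks, from the age of 8 weeks. Double-deficient mice (ApoE-/-LTbR-/-) lacked apolipoprotein E and the lymphotoxin beta receptor, and their ApoE-deficient littermates (ApoE-/-) lacked apolipoprotein E alone. The sample titles call these groups KO and WT, but the WT mice carry the ApoE deletion too, and no mouse with intact ApoE is part of the comparison. Aorta with perivascular adipose tissue came from 4 double-deficient and 4 ApoE-deficient samples. Blood cells bound by beads against CD115, the colony-stimulating factor receptor carried by monocytes, came from 3 double-deficient and 3 ApoE-deficient preparations. Of the ApoE-deficient preparations, replicates 3 and 4 were each made from a pool of littermates, while every other preparation was of a single sample. The labels give a full deletion and name no cell type in which it acts.

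B cells sense antigen through a surface immunoglobulin that cannot signal alone and relies on the paired chains encoded by Cd79a and Cd79b. When antigen binds, Src-family kinases such as Blk act on these chains, Syk docks to them, and the adaptor Blnk brings Btk and Plcg2 together to raise calcium. Coreceptors such as Cd22 and Siglecg damp the signal, while Cr2 lowers its threshold where antigen carries complement. Pax5, Ebf1 and the octamer-binding factors with their coactivator Pou2af1 hold the B cell programme in place. In mouse atherosclerosis B cells are known to gather in the outer wall of the aorta and the fat around it, and lymphotoxin made by lymphocytes signals through the lymphotoxin beta receptor to organise lymphoid tissue.

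Each value below is a log2 signal from which the probe set's median within the same tissue has been taken. A value of 1 is therefore a doubled signal relative to that median, and the values say nothing of how strongly 1 gene is expressed beside another, or in aorta beside CD115+ cells. For the same reason neither the labelled tissue nor the CD115+ gate could be checked for the presence of its markers. Differences are double-deficient minus ApoE-deficient, so a negative difference is a lower signal in the double-deficient samples. In such bulk samples a difference in the number of B cells and a difference in RNA per B cell cannot be told apart. Ltbr, the targeted gene, was at -0.98, -1.10, -1.29 and -0.49 in the double-deficient aortas, against 0.63, 0.49, 0.70 and 0.89 in the ApoE-deficient aortas. In CD115+ cells it was at -0.07, -0.62 and -0.44 in the double-deficient preparations, against 0.55, 0.07 and 0.40 in the ApoE-deficient preparations. The groups did not overlap in either tissue, so no sample's Ltbr signal went against its label. The position of its probe set relative to the deletion is not known here.

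Promoters are shown because several of the transcription factors in the list bind known short motifs. RefSeq (GRCm38.p6) gave windows of 300 bases, from 250 before to 50 after the annotated start, for 28 of the 33 genes. The octamer ATGCAAAT, bound by Pou2f2 and its coactivator Pou2af1, was present on either strand in 2 of the 28 genes (7.1%), which were Blnk and Vpreb3, and in 1.97% of the 27025 genes with a window. The core CCCNNGGG of the Ebf1 site was present in Cd22, Spib and Bank1, or 3 of 28 genes (10.7%), against 15.39% of all genes. The PU.1 sequence GAGGAAG, also read by the related factor Spib, was present in 7 of 28 genes, against 15.36% of all genes. The kB sequence, GGG and CC with any 5 bases between them, is bound by the NF-kB factors on which lymphotoxin beta receptor signals converge. It was present in 20 of 28 (71.4%), against 53.52%. In the windows printed here, 5′ to 3′ on the strand of the gene, capitals mark 1 match. It is the kB sequence in Cd79a (chr7:24897247-24897546, plus strand), the EBF core in Cd22 (chr7:30878979-30879278, minus strand) and the octamer in Vpreb3 (chr10:75948050-75948349, plus strand), where it is read on the opposite strand.
Cd79a: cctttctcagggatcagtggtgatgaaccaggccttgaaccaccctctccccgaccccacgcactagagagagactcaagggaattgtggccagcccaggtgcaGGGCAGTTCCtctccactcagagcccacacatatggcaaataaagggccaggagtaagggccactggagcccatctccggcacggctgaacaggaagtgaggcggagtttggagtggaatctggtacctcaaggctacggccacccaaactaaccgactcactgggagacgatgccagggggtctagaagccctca
Cd22: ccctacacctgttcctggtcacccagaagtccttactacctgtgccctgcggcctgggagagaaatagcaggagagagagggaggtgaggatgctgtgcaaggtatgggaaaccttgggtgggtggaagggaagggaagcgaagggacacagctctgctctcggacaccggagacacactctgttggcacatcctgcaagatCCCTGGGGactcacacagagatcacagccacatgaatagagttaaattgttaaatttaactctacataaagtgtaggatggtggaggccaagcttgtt
Vpreb3: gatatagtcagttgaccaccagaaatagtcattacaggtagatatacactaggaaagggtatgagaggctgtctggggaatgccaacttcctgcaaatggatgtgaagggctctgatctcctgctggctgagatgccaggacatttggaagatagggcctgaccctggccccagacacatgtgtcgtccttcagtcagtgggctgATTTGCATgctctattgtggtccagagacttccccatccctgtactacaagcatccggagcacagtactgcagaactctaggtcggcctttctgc
The first base of the match lies at -146 in Cd79a, at -48 in Cd22 and at -45 in Vpreb3, counted from the start. A match says only that these letters are present, and a binding site that departs from them is not counted.

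The first comparison asked what loss of the lymphotoxin beta receptor changed in the atherosclerosis-prone aorta. B cell genes were lower in the double-deficient aortas as a group: 30 of the 31 had a negative difference and 1, Ebf1, a positive one. Over all 22180 genes, 10462 had a negative difference. The median difference of the 31 was -1.26, against 0.0083 over all genes, and their range was from -2.57 for Fcer2a to 0.12 for Ebf1. In limma's test with Benjamini-Hochberg adjustment over all genes, 0 of the 31 passed 0.05, with a smallest adjusted p of 0.46 (Cd22). Over all genes 0.00451% passed. At an unadjusted p under 0.05 in limma 23 of the 31 were lower and 0 higher, against 3.81% of all genes lower and 3.91% higher. In 5 of the 31, Cd79a, Blk, Cd22, Cr2 and Bcl11a, every double-deficient aorta lay below every ApoE-deficient aorta, against 2.11% of all genes with this separation downward and 2.19% upward.

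The spread lay mostly within the ApoE-deficient group. The mean of the 31 genes was -0.20, -0.33, -0.09 and -0.33 in double-deficient replicates 1 to 4, against 1.59, 1.68, -0.25 and 0.91 in ApoE-deficient replicates 1 to 4. ApoE-deficient replicate 3 thus lay among the double-deficient aortas. Its value was inside their range in 19 of the 31 genes, below all of them in 6 and above all of them in 6, and it was the lowest of its group in 29. ApoE-deficient replicates 1, 2 and 4 were above every double-deficient aorta in 24 of the 31 genes, against 4.97% of all genes. Values above 1 were seen for 22, 22, 0 and 12 of the 31 genes in ApoE-deficient replicates 1 to 4, and for 0 in each double-deficient aorta. Of all 22180 genes, 316, 483, 203 and 161 were above 1 in ApoE-deficient replicates 1 to 4. In double-deficient replicates 1 to 4 these were 95, 136, 273 and 108. The place of ApoE-deficient replicate 3 among the arrays was not counted over all genes.

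**Figure D1:**
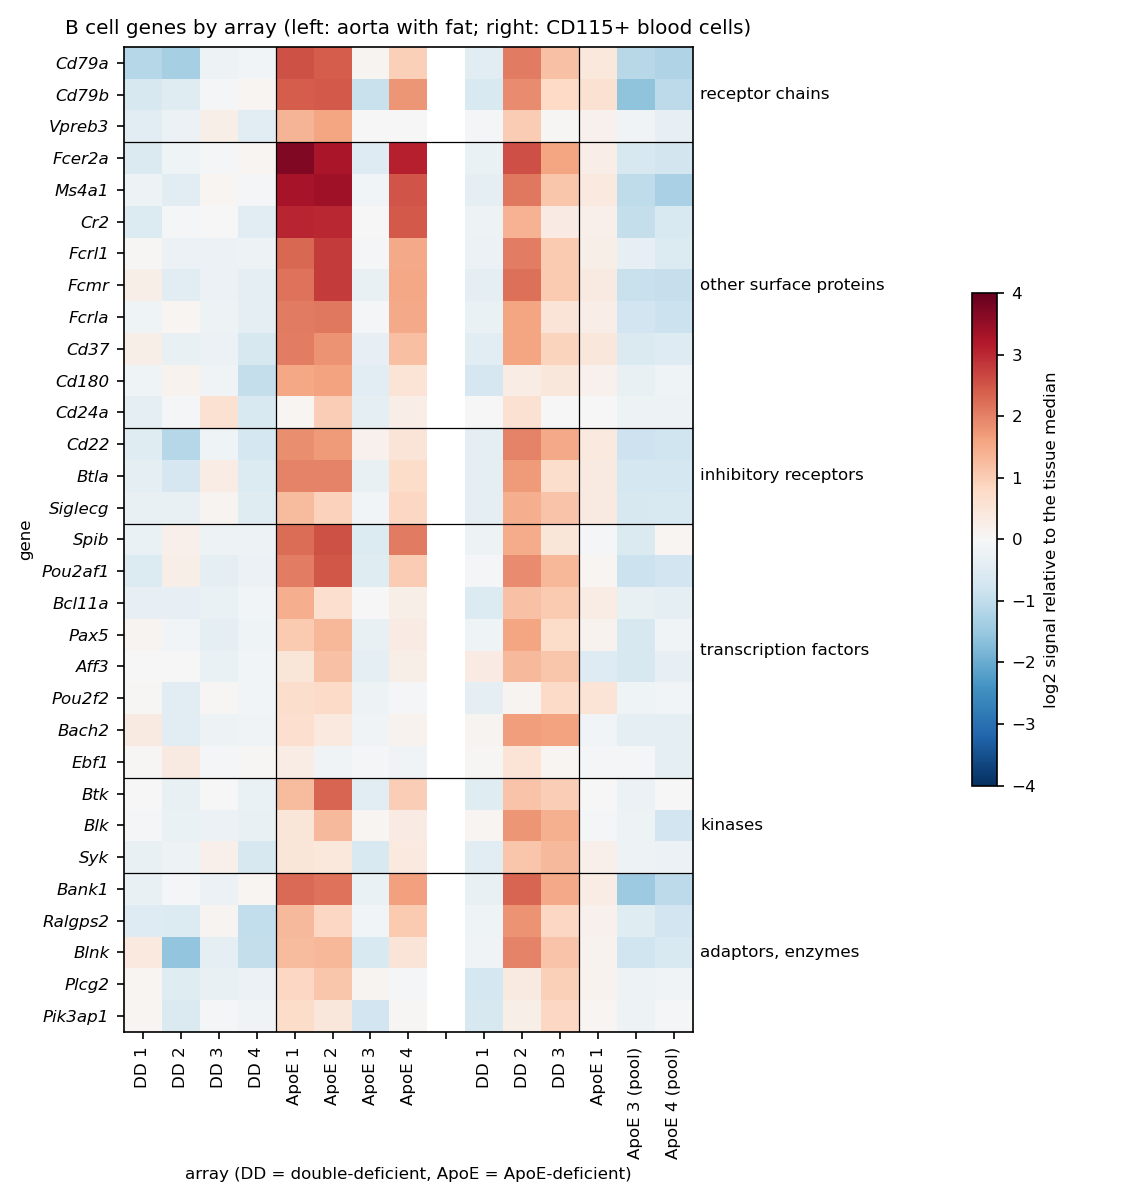
Heat map of the log2 signal of the 31 measured B cell genes (rows, by role) in each array (columns), relative to the gene's median in that tissue, with double-deficient arrays left of ApoE-deficient arrays in aorta and in CD115+ cells. In aorta, ApoE-deficient replicates 1, 2 and 4 have the highest values and replicate 3 looks like the double-deficient arrays, with a mean of -0.25, while in CD115+ cells double-deficient replicates 2 and 3 have the highest values.

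The receptor's own signalling chains were among the genes of widest difference in aorta. Cd79a was at -1.15, -1.33, -0.19 and -0.12 in the double-deficient aortas, against 2.54, 2.42, 0.12 and 0.95 in the ApoE-deficient aortas. The lowest ApoE-deficient value, of replicate 3, was just above the highest double-deficient one. The difference was -2.21 (SE 0.58), 4.61-fold lower, with an adjusted p of 0.461 in limma. In exact two-sided permutation tests of single genes, the 5 genes without overlap reached p = 0.02857, the smallest that 4 against 4 arrays allow. Other genes of wide difference did not, with exact permutation p = 0.08571 for Ms4a1, 0.1143 for Fcer2a and 0.1429 for Cd79b. Cd79b, its partner chain, was at -0.65, -0.48, -0.06 and 0.06 in the double-deficient aortas, against 2.44, 2.45, -0.90 and 1.76 in the ApoE-deficient aortas. Here ApoE-deficient replicate 3 was the lowest of all 8 arrays, and the groups overlapped. The difference was -1.72 (SE 0.71, adjusted p = 0.626, limma). Vpreb3, which takes part in assembling the receptor in developing B cells, differed by -0.95 (SE 0.40).

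The widest differences were those of B cell surface proteins, of which 8 of 9 were lower at an unadjusted p under 0.05. Ms4a1, which encodes CD20, was at -0.21, -0.42, 0.07 and -0.07 in the double-deficient aortas, against 3.29, 3.39, -0.11 and 2.53 in the ApoE-deficient aortas. The difference was -2.43 (SE 0.72, adjusted p = 0.493, limma), 5.39-fold lower, and replicate 3 was again the ApoE-deficient sample within the double-deficient range. Fcer2a, the low-affinity receptor for IgE (CD23) found on follicular B cells, was at -0.58, -0.16, -0.09 and 0.09 in the double-deficient aortas, against 3.71, 3.25, -0.51 and 3.10 in the ApoE-deficient aortas. It had the most negative difference of the list, -2.57 (SE 0.86, adjusted p = 0.547, limma), 5.95-fold lower. Cr2, the complement receptor CD21 of B cells and follicular dendritic cells, was at -0.54, -0.09, -0.03 and -0.45 in the double-deficient aortas, against 3.04, 3.03, 0.03 and 2.44 in the ApoE-deficient aortas. It differed by -2.41 (SE 0.64), and replicate 3 was only just above the double-deficient values. Fcrl1, an Fc receptor-like activating protein, differed by -1.79 (SE 0.55), Fcmr, the receptor for IgM, by -1.77 (SE 0.60), and Fcrla, an Fc receptor-like protein kept inside B cells, by -1.57 (SE 0.46). The tetraspanin Cd37 differed by -1.42 (SE 0.50) and the Toll-like protein Cd180 by -1.09 (SE 0.47). Cd24a, a glycoprotein shared with many immature cells, was the exception among the surface proteins at -0.35 (SE 0.34).

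All 3 measured inhibitory receptors were lower at an unadjusted p under 0.05. Cd22, a sialic acid-binding receptor that recruits phosphatases, was at -0.49, -1.14, -0.17 and -0.72 in the double-deficient aortas, against 1.87, 1.71, 0.17 and 0.53 in the ApoE-deficient aortas. Its groups did not overlap, the difference was -1.70 (SE 0.41), 3.25-fold lower, and its adjusted p of 0.46 in limma was the smallest of the list. Btla, an inhibitory receptor of B and T cells, was at -0.38, -0.68, 0.30 and -0.55 in the double-deficient aortas, against 1.99, 1.99, -0.30 and 0.74 in the ApoE-deficient aortas. The 3 higher ApoE-deficient arrays stood clear of the double-deficient ones, and the difference was -1.44 (SE 0.52). Siglecg, related to Cd22, differed by -0.97 (SE 0.28).

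Among the transcription factors the differences were uneven. Spib, an ETS factor of B cells and plasmacytoid dendritic cells, was at -0.26, 0.19, -0.19 and -0.19 in the double-deficient aortas, against 2.22, 2.53, -0.53 and 2.09 in the ApoE-deficient aortas. Its difference was -1.69 (SE 0.63). Pou2af1, the coactivator of octamer-binding factors, was at -0.54, 0.24, -0.38 and -0.24 in the double-deficient aortas, against 2.04, 2.47, -0.49 and 1.01 in the ApoE-deficient aortas, a difference of -1.49 (SE 0.60). In both genes replicate 3 was at the bottom of the ApoE-deficient group and inside or below the double-deficient range. Pax5, which commits cells to the B lineage, was at 0.11, -0.11, -0.36 and -0.17 in the double-deficient aortas, against 1.06, 1.34, -0.30 and 0.33 in the ApoE-deficient aortas. Its difference of -0.74 (SE 0.34) did not reach an unadjusted p of 0.05 in limma.

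Other factors of the list are also used by cells outside the B lineage. Ebf1, which adipocytes and their precursors express as well as B cells, was at 0.04, 0.37, -0.04 and 0.06 in the double-deficient aortas, against 0.28, -0.14, -0.08 and -0.13 in the ApoE-deficient aortas. It alone had a positive difference, of 0.12 (SE 0.13), with overlapping groups. Bach2, which holds back plasma cell development and is also used by T cells, was at 0.37, -0.41, -0.22 and -0.15 in the double-deficient aortas, against 0.67, 0.40, -0.13 and 0.13 in the ApoE-deficient aortas, a difference of -0.37 (SE 0.22). Aff3, a nuclear protein first studied in lymphoid cells, was at -0.01, 0.01, -0.26 and -0.11 in the double-deficient aortas, against 0.47, 1.16, -0.34 and 0.24 in the ApoE-deficient aortas, a difference of -0.47 (SE 0.28). Both genes overlapped between the groups. Pou2f2, the octamer-binding factor itself, differed by -0.41 (SE 0.25). Bcl11a, a zinc finger factor of early lymphoid cells, differed by -0.85 (SE 0.28), and its groups did not overlap.

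The kinases ran from a difference of -1.18 to -0.40. Btk, whose loss blocks B cell maturation, was at -0.03, -0.30, 0.03 and -0.26 in the double-deficient aortas, against 1.26, 2.32, -0.41 and 0.98 in the ApoE-deficient aortas, a difference of -1.18 (SE 0.50). Blk was at -0.09, -0.28, -0.24 and -0.29 in the double-deficient aortas, against 0.48, 1.30, 0.09 and 0.34 in the ApoE-deficient aortas. Its groups did not overlap, and the difference was -0.78 (SE 0.24, adjusted p = 0.51, limma). Syk, which myeloid cells use as well, was at -0.28, -0.22, 0.22 and -0.65 in the double-deficient aortas, against 0.47, 0.44, -0.61 and 0.39 in the ApoE-deficient aortas, with a difference of -0.40 (SE 0.28) and overlapping groups.

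Of the adaptors and enzymes below the receptor, 4 of 5 were lower at an unadjusted p under 0.05. Bank1, a scaffold of B cell calcium signalling, was at -0.29, -0.08, -0.23 and 0.08 in the double-deficient aortas, against 2.28, 2.16, -0.27 and 1.64 in the ApoE-deficient aortas. The difference was -1.58 (SE 0.52), and ApoE-deficient replicate 3 was within the double-deficient range. Ralgps2, an exchange factor for Ral GTPases, was at -0.53, -0.55, 0.10 and -0.98 in the double-deficient aortas, against 1.29, 0.84, -0.10 and 1.05 in the ApoE-deficient aortas, a difference of -1.26 (SE 0.33). Blnk differed by -1.26 (SE 0.54) and Plcg2, the phospholipase that raises calcium, by -0.72 (SE 0.27). Pik3ap1, an adaptor to phosphoinositide 3-kinase that myeloid cells also use, differed by -0.28 (SE 0.32).

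**Figure D2:**
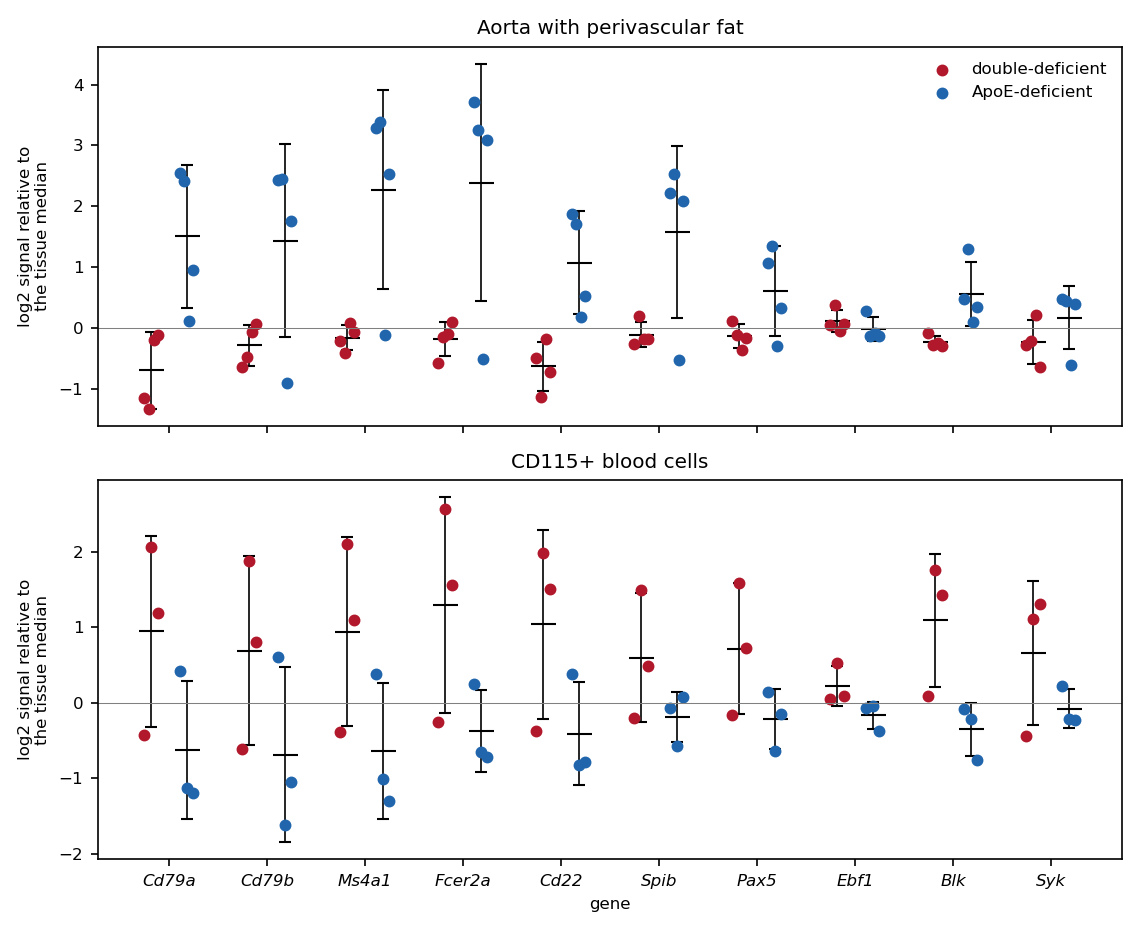
Log2 signal of selected B cell genes in each array, relative to the gene's tissue median, with a point per array, a dash at the group mean, bars of 1 SD and double-deficient arrays left of ApoE-deficient arrays in aorta and in CD115+ cells. Cd79a, Cd22 and Blk do not overlap between the groups in aorta, whereas in Ms4a1 and Fcer2a ApoE-deficient replicate 3 (at -0.11 and -0.51) sits with the double-deficient aortas.

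Genes listed here as also expressed by other cells had a smaller median difference. For the 16 measured genes so listed, such as Syk, Btk, Ebf1 and Cd37, the median difference was -0.79, and 9 of 16 were lower at an unadjusted p under 0.05. For the other 15 the median was -1.70, and 14 of 15 were lower at that threshold. These 15 are not confined to B cells. They include Cr2, described above as a gene of follicular dendritic cells too, and Spib, described as a gene of plasmacytoid dendritic cells too. The difference between these subsets was not tested. Among all 22180 genes ordered by aortic difference, 3 of the 10 most negative were members, 8 of the 50 most negative and 18 of the 200 most negative.

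Without ApoE-deficient replicate 3, 11 of the 31 genes passed the adjusted test and fell in the double-deficient aortas, against 0.311% of all genes that fell. These were Fcer2a (-3.54, SE 0.20, adjusted p = 0.00419), Cr2 (-3.11), Spib (-2.39), Ms4a1 (-3.23, SE 0.23, adjusted p = 0.00577), Bank1 (-2.16), Fcrla (-2.06), Cd79b (-2.50), Fcrl1 (-2.35), Fcmr (-2.39), Siglecg (-1.24) and Cd37 (-1.92), from limma on 4 against 3 arrays. The count at an unadjusted p under 0.05 was 29 of 31, against 5.16% of all genes lower. The groups then did not overlap in 24 of 31, against 4.97% of all genes. The median difference was -1.66. Cd79a and Cd22 did not pass in that fit (adjusted p = 0.142 for both, limma). This array was left out after its values had been seen, its Ltbr signal of 0.70 was that of its group, and the labels give no reason to remove it. Other arrays moved the counts too: 12 genes were lower at an unadjusted p under 0.05 without ApoE-deficient replicate 1 (3.35% of all genes), 13 without ApoE-deficient replicate 2 (3.43% of all) and 13 without double-deficient replicate 4 (3.03% of all). The groups did not overlap in 8 genes without double-deficient replicate 1 (3.97% of all) and in 9 without double-deficient replicate 3 (3.39% of all).

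Other genes of the receptor pathway, from signalling enzymes to nuclear targets, were counted in the same way in aorta. Of 39 listed, 33 were measured, and 0 passed the adjusted test in limma. At an unadjusted p under 0.05, 8 were lower and 3 higher, against 3.81% of all genes lower and 3.91% higher. The median difference was -0.19. The phosphatase Ptpn6, used by most blood cells, differed by -1.10 (SE 0.30) and the GTPase Rac2, shared by blood cells, by -1.42 (SE 0.35). Gsk3b, a kinase of most cell types, differed by 0.38 (SE 0.09). Of 7 measured immunoglobulin genes 4 were lower at that threshold, with a median of -1.61. Ighm, the heavy chain of IgM, differed by -1.61 (SE 0.66) and Jchain, which joins secreted IgM and IgA, by -2.03 (SE 0.75). Of 32 further B cell genes 19 were lower and 0 higher, with a median of -0.73, and 1 of them, Ly6d, was the gene that passed the adjusted test over all genes. It encodes a membrane protein found on B cell precursors, and its difference was -3.54 (SE 0.29, adjusted p = 0.0495, limma). It passed in 7 of 16 alternative fits, where its adjusted p ran from 0.00599 to 0.206, and not with robust eBayes (adjusted p = 0.0635) or array weights (adjusted p = 0.0683). Its call was also lost when any array but double-deficient replicate 4 or ApoE-deficient replicate 3 was left out.

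Markers of some other cells were also lower in the double-deficient aortas. Of 14 measured T cell markers 11 were lower at an unadjusted p under 0.05 and 0 higher, with a median of -1.31. Over all genes 3.81% were lower and 3.91% higher at that threshold. Cd4 differed by -1.24 (SE 0.18) and Cd8a by -1.86 (SE 0.28). The mean of the T cell list was -0.20, -0.33, -0.79 and -0.89 in the double-deficient aortas, against 0.99, 1.06, 0.01 and 0.65 in the ApoE-deficient aortas. By this list mean, ApoE-deficient replicate 3 was the lowest of its group in T cell markers too, but above every double-deficient aorta. Single T cell markers differed in this. The groups did not overlap in 6 of 14, among them Cd4 and Cd8a, against 2.11% of all genes. In Cd2 (-0.34), Cd3g (-0.14) and Lat (-0.31), ApoE-deficient replicate 3 was inside the double-deficient range. Of 8 genes of lymphoid stroma and high endothelial venules 3 were lower, and the list mean was -0.12, -0.32, -0.20 and -0.58 in the double-deficient aortas, against 0.61, 0.70, -0.17 and 0.72 in the ApoE-deficient aortas. Glycam1, made by the high endothelial venules of lymph nodes, had the most negative difference of all genes, -4.06 (SE 0.69, adjusted p = 0.296, limma). In the 3 lower genes, Glycam1, Chst4 and, only just, Tnfsf11, ApoE-deficient replicate 3 was above every double-deficient aorta. In Glycam1 it was at 0.70, against -0.70 in the highest double-deficient aorta. Of 9 plasma cell markers 2 were lower, and the list mean ran from -0.36 to 0.12 in the double-deficient aortas, against -0.31 to 0.99 in the ApoE-deficient aortas. Of 13 monocyte and macrophage markers 1 was lower (median 0.15), and of 12 smooth muscle markers 3 were higher (median 0.31). All 10 skeletal muscle markers had a negative difference, with a median of -1.28, and 1 of them was lower at an unadjusted p under 0.05. Their mean was -1.10, -1.42, -1.02 and 1.28 in the double-deficient aortas, against -1.36, 1.77, 2.01 and 0.77 in the ApoE-deficient aortas, so the groups overlapped and ApoE-deficient replicate 3 was the highest. The part of these cells and tissues in the B cell result was not tested.

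**Figure D3:**
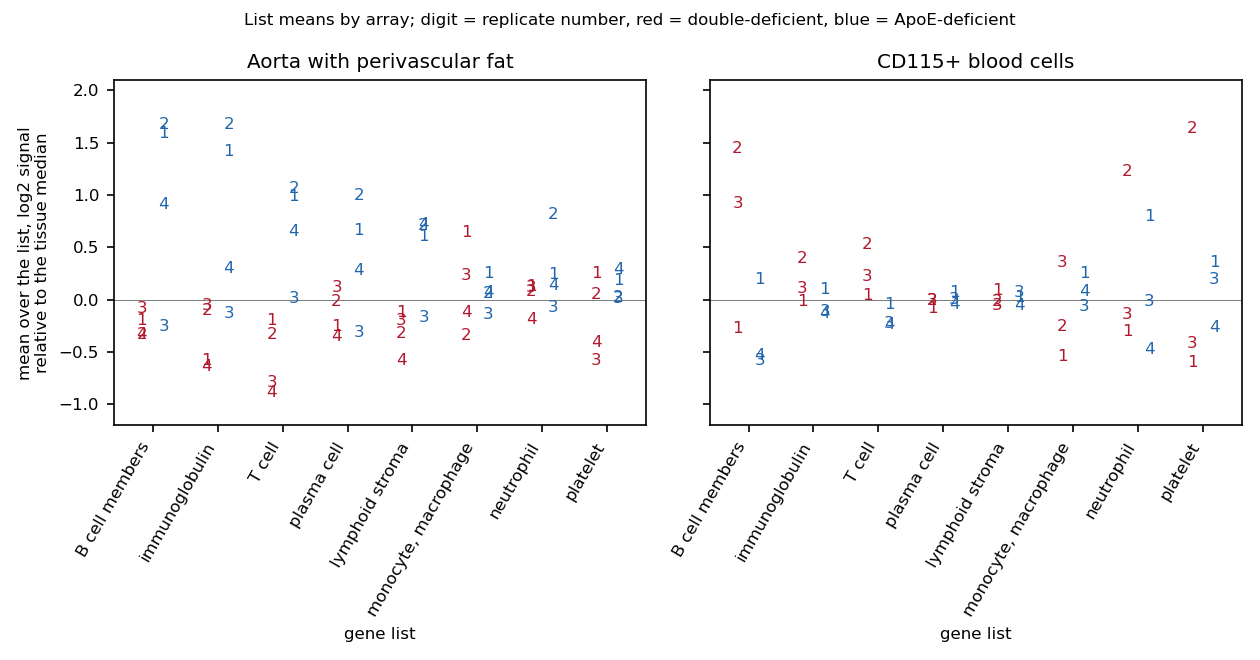
Mean log2 signal per array of the B cell genes and of marker lists of other cells, relative to tissue medians, with 1 digit per array, its replicate number, and double-deficient arrays left of ApoE-deficient arrays. In aorta the means of the B cell, immunoglobulin and lymphoid stroma lists place ApoE-deficient replicate 3 with the double-deficient arrays, whereas the T cell list mean places it at 0.01, above all of them. Single genes can depart from their list mean: Glycam1, at 0.70 in that array, was above all double-deficient aortas.

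In CD115+ blood cells the comparison asked the same of circulating cells, and the B cell genes lay the other way. All 31 had a positive difference, with a median of 1.04 against -0.0109 over all genes, and a range from 0.09 for Pou2f2 to 1.92 for Bank1. Over all genes, 9924 of 22180 had a positive difference. Bank1 had the highest difference of all 22180 genes, and 7 of the 10 highest, 17 of the 50 highest and 24 of the 200 highest were members. In limma 0 of 31 passed the adjusted test, against 0% of all genes. At an unadjusted p under 0.05 in limma 5 of 31 were higher (Blk, Pou2af1, Blnk, Bach2 and Aff3), against 2.06% of all genes higher and 2.33% lower. The groups did not overlap in 4 of 31 (Blk, Ebf1, Bach2 and Aff3), against 3.93% of all genes upward and 5.23% downward. With 3 against 3 arrays the exact two-sided permutation test cannot go below p = 0.1.

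The double-deficient CD115+ preparations were not alike. The members' mean was -0.28, 1.45 and 0.92 in double-deficient replicates 1 to 3, against 0.19, -0.59 and -0.53 in ApoE-deficient replicates 1, 3 and 4. Double-deficient replicates 2 and 3 were both above every ApoE-deficient preparation in 28 of the 31 genes, against 13% of all genes. Double-deficient replicate 1 was below ApoE-deficient replicate 1 in 27 of the 31. Values above 1 were seen for 0, 25 and 15 genes in double-deficient replicates 1 to 3, and for 0 in each ApoE-deficient preparation. ApoE-deficient replicate 1, the single preparation of its group, was above both pools in 27 of 31 genes. Neither this order nor that of the 2 replicates numbered 1 was counted over all genes. Pooling and genotype cannot be told apart in full, since every pool is ApoE-deficient. With single preparations only, 3 against 1, the median difference was 0.52, and the values of Cd79b (0.08), Cd37 (0.25) and Cr2 (0.30) were small, whereas Blk (1.18), Bach2 (1.25) and Aff3 (1.43) were close to those with the pools. Cd180 (-0.15) and Pou2f2 (-0.37) were then negative.

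Among the receptor chains and kinases, Cd79a was at -0.42, 2.07 and 1.19 in the double-deficient preparations, against 0.42, -1.12 and -1.19 in the ApoE-deficient preparations. Its difference was 1.57 (SE 0.75), 2.98-fold higher, with overlapping groups. Cd79b was at -0.61, 1.88 and 0.80 in the double-deficient preparations, against 0.61, -1.62 and -1.05 in the ApoE-deficient preparations, a difference of 1.38 (SE 0.81). In both chains the double-deficient replicate 1 lay between ApoE-deficient replicate 1 and the pools. Blk was at 0.09, 1.75 and 1.43 in the double-deficient preparations, against -0.09, -0.22 and -0.75 in the ApoE-deficient preparations. It did not overlap between the groups and differed by 1.44 (SE 0.46, adjusted p = 0.976, limma). Btk was at -0.48, 1.14 and 0.97 in the double-deficient preparations, against -0.02, -0.24 and 0.02 in the ApoE-deficient preparations, a difference of 0.62 (SE 0.43). Syk, which monocytes express in their own right, was at -0.44, 1.11 and 1.30 in the double-deficient preparations, against 0.22, -0.22 and -0.23 in the ApoE-deficient preparations, a difference of 0.74 (SE 0.47). In both kinases double-deficient replicate 1 had the lowest value of all 6 arrays.

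Surface proteins and inhibitory receptors had the same 2 high arrays. Ms4a1 was at -0.38, 2.11 and 1.09 in the double-deficient preparations, against 0.38, -1.01 and -1.30 in the ApoE-deficient preparations, a difference of 1.58 (SE 0.74). Fcer2a was at -0.25, 2.56 and 1.56 in the double-deficient preparations, against 0.25, -0.65 and -0.73 in the ApoE-deficient preparations, a difference of 1.67 (SE 0.73). Cd22 was at -0.38, 1.98 and 1.51 in the double-deficient preparations, against 0.38, -0.82 and -0.79 in the ApoE-deficient preparations, a difference of 1.45 (SE 0.68). In all of these the double-deficient replicate 1 was below ApoE-deficient replicate 1. Btla was at -0.35, 1.69 and 0.70 in the double-deficient preparations, against 0.35, -0.71 and -0.70 in the ApoE-deficient preparations, a difference of 1.03 (SE 0.57). Fcmr differed by 1.45 (SE 0.70), Fcrl1 by 1.18 (SE 0.58), Fcrla by 1.07 (SE 0.53), Siglecg by 1.04 (SE 0.54), Cr2 by 0.96 (SE 0.48) and Cd37 by 0.90 (SE 0.56). The smallest differences of the surface proteins were those of Cd24a, at 0.34 (SE 0.18), and of Cd180, which monocytes also carry, at 0.13 (SE 0.32). Vpreb3 differed by 0.43 (SE 0.31).

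Transcription factors held most of the genes without overlap. Aff3 was at 0.32, 1.30 and 1.11 in the double-deficient preparations, against -0.51, -0.64 and -0.32 in the ApoE-deficient preparations. Its difference of 1.40 (SE 0.26) was 2.64-fold, and it had the smallest unadjusted p of the list, but its adjusted p was 0.976 in limma. Bach2 was at 0.12, 1.68 and 1.61 in the double-deficient preparations, against -0.12, -0.39 and -0.35 in the ApoE-deficient preparations, a difference of 1.42 (SE 0.43). Ebf1 was at 0.05, 0.53 and 0.09 in the double-deficient preparations, against -0.07, -0.05 and -0.38 in the ApoE-deficient preparations, a small difference of 0.39 (SE 0.16) without overlap. In each of these 3 genes even double-deficient replicate 1 was above all ApoE-deficient preparations. Pou2af1 was at -0.07, 1.89 and 1.32 in the double-deficient preparations, against 0.07, -0.86 and -0.77 in the ApoE-deficient preparations, a difference of 1.57 (SE 0.54). Pax5 was at -0.16, 1.59 and 0.73 in the double-deficient preparations, against 0.15, -0.65 and -0.15 in the ApoE-deficient preparations, a difference of 0.93 (SE 0.46). Spib was at -0.20, 1.49 and 0.49 in the double-deficient preparations, against -0.07, -0.57 and 0.07 in the ApoE-deficient preparations, a difference of 0.78 (SE 0.44). These last 3 genes overlapped between the groups through double-deficient replicate 1. Bcl11a differed by 0.68 (SE 0.49) and Pou2f2 by 0.09 (SE 0.34).

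Of the adaptors, Bank1 was at -0.30, 2.34 and 1.53 in the double-deficient preparations, against 0.30, -1.44 and -1.05 in the ApoE-deficient preparations, a difference of 1.92 (SE 0.78), 3.78-fold higher. Ralgps2 was at -0.18, 1.79 and 0.84 in the double-deficient preparations, against 0.18, -0.49 and -0.75 in the ApoE-deficient preparations, a difference of 1.17 (SE 0.53). Blnk differed by 1.41 (SE 0.56). Pik3ap1 and Plcg2, which monocytes share, differed by 0.21 (SE 0.37) and 0.27 (SE 0.41).

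Without double-deficient replicate 1, 28 of 31 genes were higher at an unadjusted p under 0.05 in limma and 28 had no overlap, with a median difference of 1.55. The background was higher in that fit as well, at 7.27% and 13% of all genes. Still 0 of the 31 passed the adjusted test there. This array had the lowest members' mean of its group (-0.28), so leaving it out widens the difference. Its Ltbr signal of -0.07 was below every ApoE-deficient preparation, and the labels give no reason to remove it. The count at an unadjusted p under 0.05 was 1 without double-deficient replicate 2 (1.62% of all genes), without double-deficient replicate 3 (1.77% of all) or without ApoE-deficient replicate 4 (1.32% of all). In the ApoE-deficient group, leaving out replicate 3 gave a count of 2 (1.35% of all), and leaving out replicate 1 gave 9 (1.76% of all), with 22 genes then without overlap (8.17% of all).

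Other genes of the receptor pathway and markers of other cells were counted in the same way in CD115+ cells. Of 33 further receptor pathway genes 2 were higher at an unadjusted p under 0.05 and 0 lower (median 0.17). The higher genes included Rasgrp3, an activator of Ras in B cells, at 0.96 (SE 0.31). Over all genes 2.06% were higher and 2.33% lower at that threshold. With lists this small, counts of 1 to 3 genes are descriptions only. Of 7 immunoglobulin genes 1, Ighm, was higher at 0.69 (SE 0.27), and of 32 further B cell genes 2, Ccr7 and Tcf3, were higher at 1.35 (SE 0.46) and 0.52 (SE 0.18). Of 14 T cell markers 3 were higher (median 0.35): Cd2, also used by B cells in mice, at 1.84 (SE 0.71), Cd3g at 0.82 (SE 0.30) and Lat at 0.65 (SE 0.22). The T cell list mean was 0.04, 0.53 and 0.22 in the double-deficient preparations, against -0.05, -0.23 and -0.24 in the ApoE-deficient preparations, without overlap and with replicate 2 again the highest. Of 13 monocyte and macrophage markers 2 were lower, Ly6c2 at -1.30 (SE 0.51) and Fcgr1 at -1.07 (SE 0.32). The mean of that list was -0.54, -0.25 and 0.35 in the double-deficient preparations, against 0.25, -0.06 and 0.08 in the ApoE-deficient preparations, so it did not order the arrays as the B cell genes did. Double-deficient replicate 2, the highest in B cell genes, was also the highest in neutrophil markers (mean 1.22) and platelet markers (mean 1.64). Double-deficient replicate 3, also high in B cell genes, was not high in these lists (means -0.14 and -0.41). ApoE-deficient replicate 1 was above it in both (means 0.80 and 0.36). Marker lists of cells that the bead-bound fraction is not meant to hold did not share a direction. Without detection calls it is not known whether smooth muscle and adipocyte genes gave signal over background here. All 12 smooth muscle and all 9 adipocyte markers had a negative difference, with medians of -0.17 and -0.16, and 0 of either list passed an unadjusted p of 0.05 in limma. Over all genes 12256 of 22180 had a negative difference. Other lists did not run this way: all 14 T cell and 6 of 8 platelet markers were positive, and 5 of 10 skeletal muscle markers were negative. The smooth muscle mean was 0.28, -0.31 and -0.25 in the double-deficient preparations, against -0.01, 0.13 and 0.04 in the ApoE-deficient preparations. The adipocyte mean was 0.26, -0.32 and -0.27 in the double-deficient preparations, against -0.04, 0.12 and 0.06 in the ApoE-deficient preparations. Without double-deficient replicate 1, 9 of the 12 and 7 of the 9 were lower at an unadjusted p under 0.05, against 8.89% of all genes. The part of these cells and marker levels in the B cell result was not tested.

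Set against each other, the genotype differences had opposite signs in aorta and CD115+ cells for 30 of the 31 genes. The exception was Ebf1, positive in both. The difference between the tissues, tested in 1 limma fit of the 4 group means, was negative at an unadjusted p under 0.05 for 24 of 31 genes and positive for 0, against 3.49% of all genes negative. The median was -2.31 over the members and 0.0188 over all genes. Again 0 of 31 passed the adjusted test, against 0% of all genes, and the smallest adjusted p of the members was 0.555 (Aff3, -1.88, SE 0.42). Fcer2a had the most negative value, -4.24 (SE 1.26), followed by Ms4a1 at -4.01 (SE 1.13) and Cd79a at -3.78 (SE 1.00). Without ApoE-deficient aorta replicate 3, Fcer2a, Cr2 and Spib passed the adjusted test for this difference, against 0.126% of all genes. Without double-deficient CD115+ replicate 1, Blk and Bach2 did, against 0.189%. Each of these arrays had the lowest mean of the B cell genes in its group, so leaving it out widens the difference. The order of genes was not the same in both tissues: Bach2 and Aff3, at -0.37 and -0.47 in aorta, were at 1.42 and 1.40 in CD115+ cells, while Cd180, at -1.09 in aorta, was at 0.13 in CD115+ cells. Whether the same mice gave aorta and blood is not stated in the labels.

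**Figure D4:**
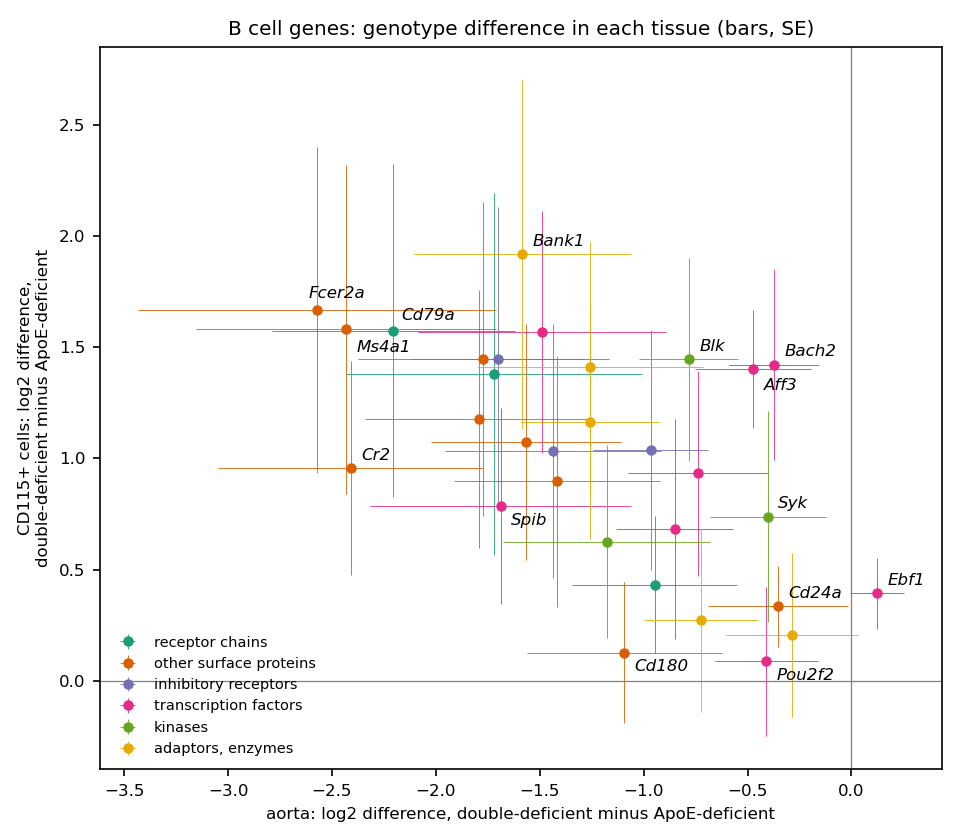
Genotype difference (double-deficient minus ApoE-deficient, log2) of each of the 31 B cell genes in aorta (horizontal axis) against CD115+ cells (vertical axis), with bars of 1 SE. All genes but Ebf1 lie at the upper left, negative in aorta and positive in CD115+ cells.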

How the data were processed

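Values came from 1 table of 14 arrays that the authors deposited as log values for 33793 probe sets, read here as log2. Neither the log base nor the array normalization is given in the sources used here. Every probe set had a median of 0 (within 1e-06) over the 8 aorta arrays and over the 6 CD115+ arrays, so the values had been centred per tissue. They hold no level, background signal or detection call, and the number of arrays limits the precision. Per the labels' protocols, 1 ng of RNA per sample was amplified and labelled with biotin.

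The platform annotation gave 23521 probe sets 1 symbol, 1814 several and 8458 none listed. The first kind were averaged to 22180 genes, without a filter. Groups and replicate numbers came from the titles. A linear model per tissue (R 4.3.3; lmFit, then eBayes, of limma 3.58.1) gave p-values that were adjusted over all genes by Benjamini and Hochberg's method and called at 0.05. For the tissue contrast, 1 model held all 4 group means. Single genes were also given an exact two-sided permutation test. The fits were tested on simulated data. Each limma p-value sets a difference of group means against the spread between these samples, estimated in part from all genes. The permutation test sets that difference against those of relabelled arrays. In CD115+ cells some of the samples are pools, so the spread there is not between single animals alone.

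The B cell genes, their roles and the marker lists were chosen with earlier results of these data known, so their counts and medians are descriptions. Values in every array are given for the pair of widest aortic difference in each role, for Cd79a, Cd79b, Ms4a1, Pax5, Ebf1, Syk and Btk, and for the 3 genes of smallest p in CD115+ cells; Cr2 was added after its values were seen. From other lists up to 3 genes of smallest p per tissue could be named. Alternatives were the probe set of largest SD, quantile normalization, centred arrays, a variance trend, robust eBayes, array weights, a joint fit, a replicate block and leaving out each array.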

Additional observations from a re-analysis of the deposited data

Results flagged for a closer look

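In groups of 4 aortas, an array was singled out where its gap to the nearest other array was above Dixon's 95% critical value, taken as a share of the group's range. This was checked in 104 groups of values (31 genes and the marker lists, in both genotypes) and met in 9. Chance alone gives such a gap in about 5% of groups, and these groups share arrays and genes.

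ApoE-deficient replicate 3 stood below the rest of its group in Fcer2a (-0.51), Spib (-0.53), Syk (-0.61) and the mean of the lymphoid stroma and high endothelial venule list (-0.17). ApoE-deficient replicate 1 stood above its group in Ebf1 (0.28). Among the double-deficient aortas, replicate 2 stood above the others in Spib (0.19) and replicate 1 in Fcrl1 (0.0486), both gaps being small on the log2 scale. Double-deficient replicate 4 stood below in the neutrophil list mean (-0.19) and above in the skeletal muscle list mean (1.28). CD115+ groups had 3 arrays each and were not checked in this way.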

How the results depend on the processing

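The 17 B cell genes whose values were given in every array by rule (Cr2 was not among those rerun singly) kept their direction in both tissues under each alternative that was run on single genes. In aorta the count of B cell genes lower at an unadjusted p under 0.05 was 23 and became 12 with a variance trend, 20 with the replicate block and 12 to 29 when each array was left out. The count passing the adjusted test was 0 to 11 over those left-out arrays, with 11 only without ApoE-deficient replicate 3, and the count without overlap was 5 to 24. In CD115+ cells the count higher at that threshold was 5 and became 24 with array weights, 10 in 1 fit over all 14 arrays, 1 with the replicate block and 1 to 28 when each array was left out, the highest without double-deficient replicate 1. The count without overlap was 4 to 28 over left-out arrays, and it was 22 without ApoE-deficient replicate 1. The cause was not tested, except that leaving out an array changes the samples compared. For the variance trend, the replicate block, array weights and the joint fit, no share of all genes is given. The counts from these fits therefore cannot be read as results about the B cell genes. Same-numbered arrays did not deviate together (correlations of 0.17, -0.15, -0.14 and 0.06 in aorta, -0.47 and -0.29 in CD115+ cells), so the replicate numbers were not taken as pairs. The use of single CD115+ preparations only was chosen after seeing the data. Without detection calls, how far signal over background limits any gene is unknown.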
